A study of Danio rerio with 9 samples.

Results

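The 48 protein folding and degradation genes were examined across the livers of zebrafish larvae given azithromycin or 1 of 7 of its impurities. They were chosen by pathway name. A gene was a member when any of the 8 deposited tables of differentially expressed genes (DEGs) placed it under the KEGG terms Protein processing in endoplasmic reticulum, Proteasome, or Ubiquitin mediated proteolysis. Genes that were also under 5 other KEGG terms (MAPK signaling pathway, Endocytosis, Phagosome, Lysosome, and Metabolic pathways) were left out. The rule selected 48 of the 1154 genes listed in any table, or of the 858 listed under any KEGG pathway. Of these, 23 came from the ubiquitin term, 15 from the endoplasmic reticulum (ER) term, and 10 from the proteasome term.

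Wild-type AB larvae were kept with azithromycin or with impurity F, I, J, L, Q, R, or S, each at 2 mM, or with DMSO, for 72 h from 3 dpf to 6 dpf (days post-fertilization), and RNA-seq was performed on total RNA of the dissected liver. Each compound was represented by 1 library, and so was DMSO. The methods speak of triplicates for experiments in general, and what each library stands for beyond its label, such as how many larvae were pooled, is not given in the sources used here. Each table compares 1 compound with the DMSO library and gives the DEGs of each pathway with the direction, upregulated or downregulated.

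Only names and directions of genes are given in the tables, so the size of a change, the level of a gene, and the depth of a library are unknown. A member that a table does not list may have missed the threshold or may not have been measured in that library, and these cannot be told apart. With 1 library per condition no comparison has a replicate check, and no test was made. The members were selected on the same calls that are described below, so their directions are a description with no test. No file of the DMSO library itself was used here. All 8 comparisons share that library, so a gene with the same direction in many tables cannot be told apart from a gene that was high or low in the DMSO library itself. In RNA of a whole dissected organ, fewer cells of a type and less RNA per cell cannot be told apart either. The liver label could not be checked, because a marker of the tissue appears in these tables only where it was a DEG.

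Secreted and membrane proteins enter the ER as they are made, fold there with chaperones, and are sent back to the cytosol for destruction when folding fails. Ubiquitin is activated by an E1 enzyme, passed to an E2 enzyme, and joined to the target by a ligase, and most targets tagged with ubiquitin chains are degraded by the proteasome. Hepatocytes secrete large amounts of plasma proteins, and this system is active in them. The roles given below are known mainly from mammals and yeast.

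Across the 8 tables the 48 members had 152 entries, an entry being 1 gene in 1 table. Of these, 81 were upregulated and 71 downregulated, so that 53.3% were upregulated, beside 51% of the 2367 entries of all KEGG genes. The proteasome genes had 27 upregulated and 18 downregulated entries, the ER genes 17 and 15, and the ubiquitin genes 37 and 38. No direction was shared by the members as a whole.

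**Figure D1:**
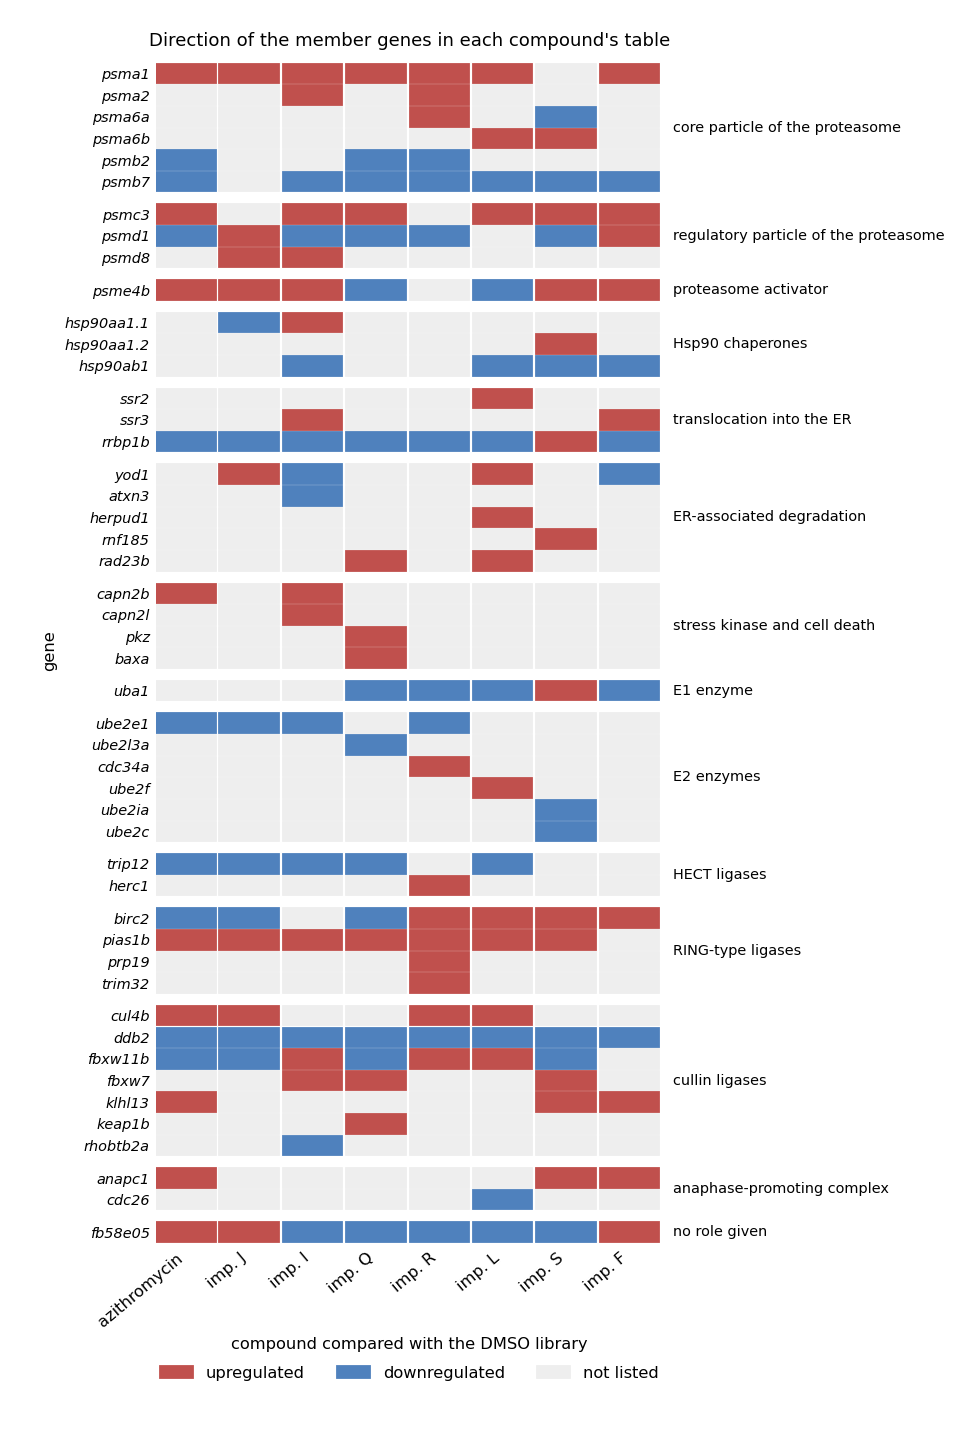
Direction of each of the 48 members (rows, grouped by role) in the table of each compound against DMSO (columns), with red for upregulated, blue for downregulated, and grey for not listed. Only ddb2 is blue in all 8 columns, psma1 and pias1b are red in 7, and psmb7 is blue in 7. The gene rrbp1b is also blue in 7 columns and is red for impurity S. The gene drawn as capn2l has no symbol in the tables and carries its RefSeq symbol.

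For each compound, the number of members listed was read beside the share of the 858 KEGG genes that the same table lists. The azithromycin table listed 18 of the 48 members (37.5%), 9 upregulated and 9 downregulated, beside 35.4% of all KEGG genes (18.5% upregulated and 16.9% downregulated). The table of impurity J listed 15 members (31.2%), 8 upregulated and 7 downregulated, beside 30.7% of KEGG genes (15.3% and 15.4%). Both shares of members lay within a few percentage points of the KEGG genes. Impurity I listed the most members, 23 (47.9%), with 12 upregulated and 11 downregulated, beside 34.8% of KEGG genes (18.4% upregulated and 16.4% downregulated). For impurity Q, 20 members (41.7%) were listed and the split was turned towards downregulation, 8 upregulated and 12 downregulated, whereas KEGG genes had 35.4% listed, 18.1% upregulated and 17.4% downregulated. Impurity Q was the compound with the most downregulated members. With members also under Reactome alone, impurity Q had 5 upregulated and 4 downregulated, and impurity S had the most downregulated members, 5.

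The members listed for impurity R numbered 19 (39.6%), 11 upregulated and 8 downregulated, beside 34.7% of KEGG genes (18.2% and 16.6%). Impurity L listed 21 (43.8%), 12 upregulated and 9 downregulated, beside 33.7% (17.2% and 16.4%). The same numbers of members, 21 in all, 12 upregulated and 9 downregulated, were found for impurity S, beside 36.2% of KEGG genes (17.4% upregulated and 18.9% downregulated). These 3 compounds listed more upregulated than downregulated members, as did impurities I, J, and F. With members in at least 2 tables alone, impurity R had 7 upregulated and 8 downregulated, and with members also under Reactome, impurity S had 5 and 5. Impurity F listed 15 (31.2%), 9 upregulated and 6 downregulated, beside 34.8% of KEGG genes (17.7% and 17.1%). Impurities F and J therefore had the fewest members. With members also under Reactome alone, impurity F had 2 upregulated and 3 downregulated.

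**Figure D2:**
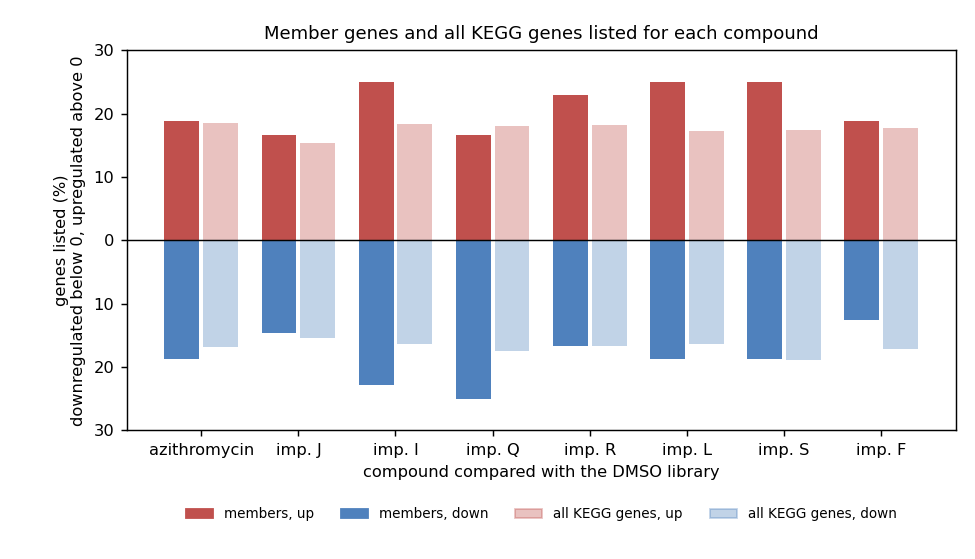
Percent of the 48 members (solid bars) and of all 858 KEGG genes (pale bars) that each compound's table lists, upregulated above 0 and downregulated below it. The members reach 25% upregulated for impurities I, L, and S and 25% downregulated for impurity Q, and the pale bars lie between 15.3% and 18.9% for all 8 compounds.

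The tables also print how many background genes each pathway has. Of the 50 background genes of the Proteasome term, between 4 (8%, impurity J) and 7 (14%, impurity I) were listed. For each compound this was above the share over all KEGG pathways, 6.02% to 7.63% of 10387 gene and pathway pairs. The numbers of genes are small, and psma1, psmb7, psmd1, and psme4b recur in 7 tables each. A pair counts a gene once per pathway, so these shares are unlike measures, and the difference was not tested. Of the 125 genes of the Ubiquitin mediated proteolysis term, between 5.6% (impurity F) and 10.4% (impurity R) were listed. The 157 genes of the ER term had the lowest shares, from 1.91% for impurity R to 5.1% for impurities L and F, with impurity I apart at 8.92%. These shares include the genes that the rule leaves out.

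**Figure D3:**
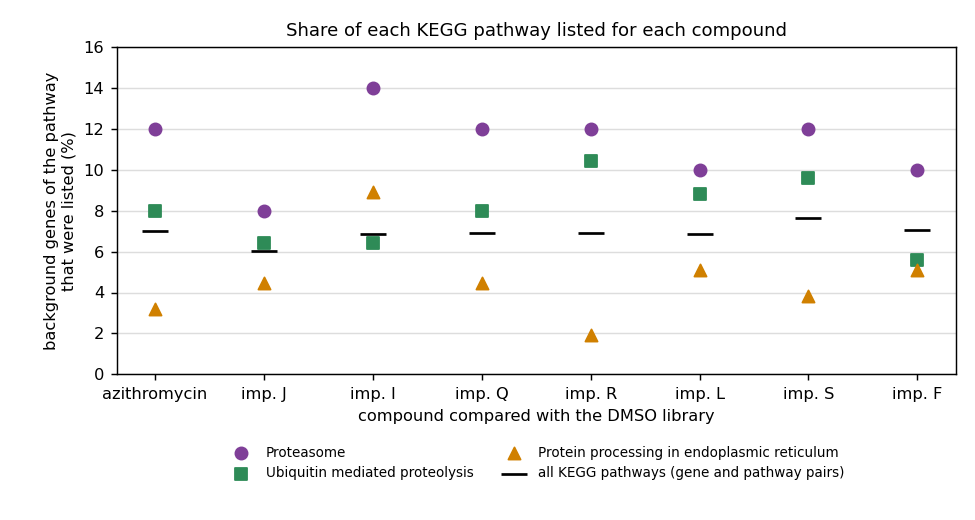
Percent of the background genes of 3 KEGG pathways that each compound's table lists, with a black dash for all KEGG gene and pathway pairs. The Proteasome circles lie above the dash for every compound, and the ER triangles lie below it for every compound except impurity I (8.92%, with the dash at 6.87%).

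The proteasome is a barrel-shaped core particle that cuts proteins, capped at its ends by regulatory particles that bind and unfold them. Both rings of the core held a gene listed in 7 tables. The gene psma1, an outer-ring subunit, was upregulated for every compound except impurity S, whose table did not list it. The gene psmb7, an inner-ring subunit with a catalytic site, was downregulated for every compound except impurity J, whose table did not list it. The 2 subunits thus stood in opposite directions in the 6 tables that list both. Of the other 4 core genes, psmb2, an inner-ring subunit, was downregulated for azithromycin, Q, and R, and psma2, an outer-ring subunit, was upregulated for I and R.

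The remaining 2 core genes, psma6a and psma6b, are copies of the gene of another outer-ring subunit. For impurity S, psma6a was downregulated and psma6b upregulated, and elsewhere psma6a was upregulated for R and psma6b for L. The sequences of the copies were not compared here, and how their reads were assigned is not given in the sources used here. Whether reads were shared between the copies was not tested, so the calls of either copy are uncertain. In all, the 6 core genes had 12 upregulated and 11 downregulated entries.

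In the regulatory particle, psmc3, 1 of the ATPases that unfold the substrate, was upregulated for azithromycin and impurities I, Q, L, S, and F, and was not listed for J and R. A large scaffold subunit of the same particle, psmd1, was downregulated for azithromycin, I, Q, R, and S and upregulated for J and F. The lid subunit psmd8 was upregulated for J and I. The activator psme4b, which caps the core in place of the regulatory particle, was upregulated for azithromycin, J, I, S, and F, downregulated for Q and L, and not listed for R. By compound, the 10 proteasome genes stood at 4 upregulated and 0 downregulated for impurity J and 4 and 1 for F, whereas Q had 2 and 4. Azithromycin, R, and S each had 3 and 3, I had 5 and 2, and L had 3 and 2. All KEGG genes stood at 131 upregulated and 132 downregulated for J, 152 and 147 for F, and 155 and 149 for Q. They stood at 159 and 145 for azithromycin, 158 and 141 for I, and 156 and 142 for R. For L they were 148 and 141, and for S 149 and 162. The numbers of proteasome genes are small, and their differences between compounds were not tested.

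Among the 15 members under the ER term, only 3 are chaperones, all of them cytosolic and of the Hsp90 family. Such chaperones complete the folding of kinases, receptors, and other clients. The chaperone genes hspa8 and hsc70 stand under the same term but were left out by the rule. The constitutive form hsp90ab1 was downregulated for impurities I, L, S, and F and not listed for the others. Of the inducible forms, hsp90aa1.1, needed for myosin folding in zebrafish muscle, was downregulated for J and upregulated for I, and hsp90aa1.2 was upregulated for S. The last 2 genes are near copies of each other, so reads may have been shared between them. Azithromycin, Q, and R listed no Hsp90 gene.

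The translocation genes act where new proteins enter the ER. The ribosome-binding protein gene rrbp1b was upregulated for impurity S and downregulated for each of the other 7 compounds. The subunits of the translocon-associated complex ssr3 and ssr2 were only upregulated, ssr3 for I and F and ssr2 for L.

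ER-associated degradation pulls misfolded proteins out of the ER and hands them to the proteasome. Its most listed member yod1, a deubiquitinase, was upregulated for J and L and downregulated for I and F. The shuttle factor rad23b, which carries ubiquitinated proteins to the proteasome, was upregulated for Q and L. Each of the other 3 genes was listed once. They were the deubiquitinase atxn3, downregulated for I, the membrane protein herpud1, upregulated for L, and the ER ligase rnf185, upregulated for S.

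The last 4 ER genes that the rule kept act in stress signalling and cell death. All 5 of their entries were upregulated, beside 51% of the entries of all KEGG genes. Stress-signalling genes of the same term that the rule left out did not share this direction. Of these, atf4a was downregulated in 7 tables and mapk8b for azithromycin, and map2k7 was upregulated for I. The calcium-dependent protease capn2b was upregulated for azithromycin and I. A calpain gene without a symbol in the tables, capn2l in RefSeq, was upregulated for I, and as a close relative of capn2b it may share reads with it. The pro-apoptotic baxa and pkz, a fish kinase that halts translation by phosphorylating an initiation factor, were both upregulated for Q alone. For R, the only member of the ER term listed was rrbp1b. Its table also listed ganab and atf4a under that term, both downregulated, and these were left out by the rule.

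Among the ubiquitin genes, uba1, the main E1 enzyme and so the entry point of the whole system, was downregulated for Q, R, L, and F and upregulated for S. Of the 6 E2 genes, which had 2 upregulated and 7 downregulated entries, ube2e1 was downregulated for azithromycin, J, I, and R. The other E2 genes were each listed once. The genes downregulated once were ube2l3a for Q and, for S, both ube2c, the partner of the anaphase-promoting complex, and ube2ia, which carries SUMO, a relative of ubiquitin. The genes upregulated once were cdc34a, which serves cullin ligases, for R and ube2f, which carries the ubiquitin-like NEDD8, for L.

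**Figure D4:**
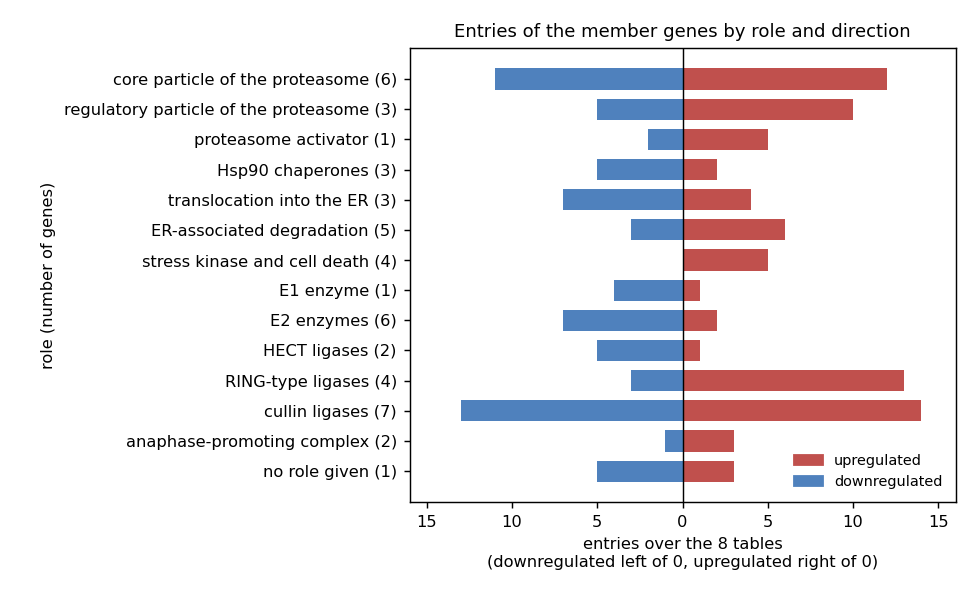
Number of entries over the 8 tables for each of 14 roles, with upregulated entries to the right of 0, downregulated entries to the left, and the number of genes in brackets. The RING-type ligases lean to the right (13 and 3) and the E2 enzymes to the left (2 and 7). The gene pias1b alone gives 7 of the 13 entries, and ube2e1 alone gives 4 of the 7. Entries of 1 gene share the DMSO library and are not replicates of a role. The core particle (12 and 11) and the cullin ligases (14 and 13) are nearly even. Of the entries of all KEGG genes, 51% were upregulated.

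The ligases choose the target. Of the 2 HECT ligases, which take ubiquitin onto themselves first, trip12 was downregulated for azithromycin, J, I, Q, and L, and herc1 was upregulated for R. The 4 RING-type ligases, which bring the E2 and the target together, had 13 upregulated and 3 downregulated entries. Of the 13, 7 came from pias1b alone. Their most constant member, the SUMO ligase pias1b, was upregulated for every compound except impurity F, whose table did not list it. The inhibitor of apoptosis birc2 divided the compounds. It was upregulated for R, L, S, and F, downregulated for azithromycin, J, and Q, and not listed for I. The splicing-associated prp19 and the tripartite motif gene trim32 were upregulated for R alone.

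Cullin ligases are assembled from a cullin scaffold and an exchangeable substrate receptor. The receptor gene ddb2, which recognises ultraviolet-damaged DNA, was downregulated in all 8 tables and was the only member with 1 direction throughout. The scaffold with which that receptor works, cul4b, was upregulated for azithromycin, J, R, and L and never downregulated. The F-box receptor fbxw11b was upregulated for I, R, and L and downregulated for azithromycin, J, Q, and S, and a further F-box gene, fbxw7, was upregulated for I, Q, and S. Among the BTB-domain adaptors, klhl13 was upregulated for azithromycin, S, and F. The sensor of electrophiles keap1b was upregulated for Q, and rhobtb2a was downregulated for I.

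In the anaphase-promoting complex, the ligase that ends mitosis, the scaffold gene anapc1 was upregulated for azithromycin, S, and F, and the small subunit gene cdc26 was downregulated for L. The gene fb58e05 stands under the ubiquitin term with no role given here. It was upregulated for azithromycin, J, and F and downregulated for I, Q, R, L, and S, so that it was listed in all 8 tables, as was rrbp1b.

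Many members were listed for a single compound and a few for nearly all. Of the 48 members, 19 (39.6%) were listed in 1 table, as were 39.3% of the 858 KEGG genes. At the other end, 7 members (14.6%) were in 7 tables and 3 (6.25%) in all 8, beside 4.9% and 3.96% of KEGG genes. The mean was 3.17 tables per member and 2.76 per KEGG gene. The 13 members in at least 5 tables held 89 of the 152 entries, and they were ddb2, rrbp1b, fb58e05, psma1, psmb7, psmd1, psme4b, pias1b, birc2, psmc3, fbxw11b, uba1, and trip12.

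**Figure D5:**
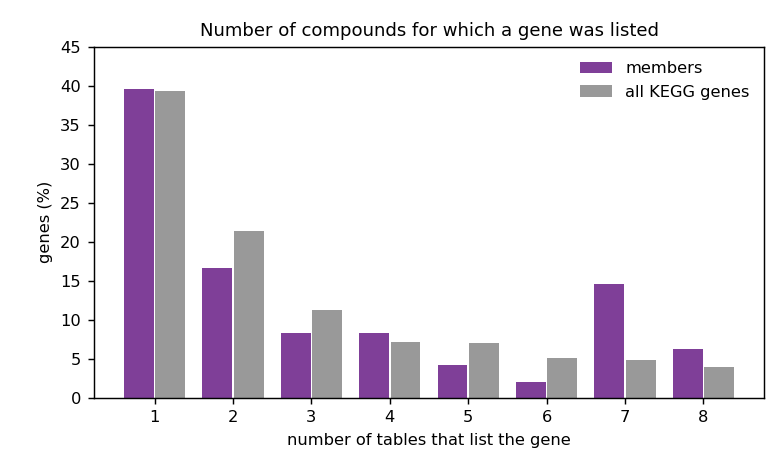
Percent of the 48 members (purple) and of all 858 KEGG genes (grey) listed in 1 to 8 tables. Both peak at 1 table (39.6% and 39.3%), and the members have a further rise at 7 tables (14.6%, with KEGG genes at 4.9%).

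Of the 19 members listed once, 13 were upregulated and 6 downregulated. Impurities Q, R, L, and S had 4 each and I had 3, and all 4 for impurity R were upregulated. Azithromycin, J, and F had none, so each member in their tables was also listed for another compound. KEGG genes listed once were not counted for each compound, so these numbers cannot be read as traits of a compound. The 29 members in at least 2 tables comprised 13 that were only upregulated, 6 that were only downregulated, and 10 (34.5%) with both directions. Of the 521 KEGG genes in at least 2 tables, 97 (18.6%) had both directions. A gene in more tables has more occasions to show both directions, and 14.6% of members but 4.9% of KEGG genes were in 7 tables. The 2 shares are therefore not directly comparable, and no test was made of this difference.

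The 10 genes with both directions were psma6a, psmd1, psme4b, hsp90aa1.1, rrbp1b, yod1, uba1, birc2, fbxw11b, and fb58e05. Set beside azithromycin at the same dose and time, each of the 7 impurities listed 11 to 13 members that azithromycin also listed, and some of them in the opposite direction. Impurity J had 1 such gene, psmd1. Impurity L had the most, 4, which were psme4b, birc2, fbxw11b, and fb58e05. Impurity R had birc2, fbxw11b, and fb58e05, and impurity S had birc2, rrbp1b, and fb58e05. The 2 genes were fbxw11b and fb58e05 for I, psme4b and fb58e05 for Q, and psmd1 and birc2 for F. Members listed for both compounds numbered 12 for J, R, L, and S, 13 for I and Q, and 11 for F. Among all KEGG genes listed for both, the share in opposite directions was 10.8% for J, 11.4% for F, and 13.3% for I. It was 16.8% for R, 17.4% for Q, 18.1% for S, and 19.4% for L. These pairs share the DMSO library, and with single libraries the differences between compounds were not tested.

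Other annotations, which the rule did not use, were read for the members. Of the 48 members, 31 stood under no further KEGG term, and 22 of the 48 also stood under a Reactome pathway. The Reactome terms with the most members were Metabolism of proteins and Post-translational protein modification, with 13 each, among them 7 proteasome genes. The 3 Hsp90 genes, anapc1, and cdc26 were under progesterone-mediated oocyte maturation. The terms apoptosis and nucleotide excision repair held 4 members (birc2, baxa, capn2b, and capn2l) and 3 members (ddb2, cul4b, and rad23b).

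The rule left out 11 genes of the same KEGG terms. Just outside it were ganab, a glucosidase subunit that trims glycans of new proteins in the ER, downregulated in all 8 tables, and the stress-response transcription factor atf4a, downregulated in all tables except that of impurity S. The chaperone hspa8 was downregulated for J, I, and Q, the mannosidase man1a2 was upregulated for J, I, and S, and the ligase cblc was upregulated for R, S, and F. The other 6 were listed once each. They were mapk8b, downregulated for azithromycin, map2k7 and tusc3, upregulated for I, traf6, upregulated for L, and mogs and hsc70, upregulated for F.

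Lists of further pathway genes were counted by name, each over the tables of all 8 compounds, and read beside the 20% of the 10387 KEGG gene and pathway pairs that were listed in any table. A list gene that belongs to no pathway could not be listed at all. List genes were counted under any of the 3 databases, whereas the pairs are of KEGG alone and count a gene once per pathway. The shares of the lists are therefore not directly comparable with the 20%. Of 43 genes of the unfolded protein response, 2 (4.65%) were in any table, atf4a and herpud1, with 1 upregulated and 7 downregulated entries, and neither the ER chaperone gene hspa5 nor the transcription factor gene xbp1 was listed. Of 38 heat shock genes, mostly cytosolic, 6 (15.8%) were listed, with 5 upregulated and 8 downregulated entries. These were the 3 Hsp90 genes, hspa8, hsc70, and the mitochondrial chaperonin gene hspd1, which was upregulated for J and R.

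Of 25 core proteasome genes 6 (24%) were listed, with 12 upregulated and 11 downregulated entries, and of 34 genes of proteasome regulators 6 (17.6%) were listed, with 22 and 8. The second list added adrm1, a ubiquitin receptor of the regulatory particle, which was upregulated for 7 compounds and not listed for impurity Q, and psmd9, an assembly factor, downregulated for I. Of 40 genes of ER-associated degradation 3 (7.5%) were listed, with 4 upregulated entries and 0 downregulated. This list lacks yod1 and atxn3, which were given that role above. The 5 members with that role had 6 upregulated and 3 downregulated entries. The 40 E2 genes had 6 (15%) listed, the 19 HECT genes 2 (10.5%), and the 15 genes of the anaphase-promoting complex 2 (13.3%), all of them members described above. Apart from adrm1 and psmd9, the genes listed from these 6 lists are members, so their counts overlap with those of the roles.

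Of 12 ubiquitin and E1 genes only uba1 (8.33%) was listed. Of 37 cullin ligase genes 7 (18.9%) were listed, with 14 upregulated and 16 downregulated entries, among them spop, a substrate adaptor downregulated for azithromycin, J, Q, and F. Of 31 RING and U-box genes 6 (19.4%) were listed, with 17 and 3.

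Markers of cell types were counted in the same way. Of 13 hepatocyte markers 4 (30.8%) were in any table, with 12 upregulated and 4 downregulated entries. They did not share a direction. The fibrinogen gene fgb was downregulated for impurity I and upregulated for the other 7 compounds, and fga was upregulated for S. The antitrypsin gene serpina1 was upregulated for I, Q, and F and downregulated for S, and the transferrin gene tfa was upregulated for Q and downregulated for azithromycin and J. Of 9 skeletal muscle markers 4 (44.4%) were listed, with 10 upregulated and 13 downregulated entries, and these also differed among themselves. The troponin gene tnnt3b was upregulated for J, S, and F and downregulated for azithromycin, I, Q, R, and L, whereas the myosin light chain gene mylpfa was upregulated for azithromycin, J, I, L, and F and downregulated for Q, R, and S. The tropomyosin gene tpma was upregulated for azithromycin and downregulated for J, Q, R, L, and S, and mylpfb was upregulated for S. Of 13 exocrine pancreas markers 2 (15.4%) were listed, amy2a (downregulated for I and S) and cel.1 (downregulated for I). Of 4 macrophage and neutrophil markers 1 (25%) was listed, marco, downregulated for azithromycin and J. None of 4 lens, 4 erythrocyte, and 3 enterocyte markers was listed. Muscle and pancreas genes were thus listed in tables that also list members, and their part in the members' directions was not tested.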

How the data were processed

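CapitalBio sequenced the liver RNA of the 9 libraries and processed the reads for the authors. The submitters' processing notes name FastQC, fastp, HISAT2, and the build GRCz11, without roles or versions. DEGs were set by the authors at a fold change of at least 2, given for upregulated genes. No test for single genes and no threshold for downregulated genes is given in the sources used here. Each deposited table lists pathways of 3 databases with the number of DEGs and background genes, the authors' own p-value and its corrected form (not used here), and each DEG with symbol, Entrez identifier, and direction.

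Genes were matched by Entrez identifier. All 48 members were found in the RefSeq gene table (GRCz12tu, used for names only), and 5 have another symbol there, for example prpf19 for prp19. Roles were assigned by hand. The members and lists were chosen with earlier results of these data known. Named with all directions were members in at least 5 tables, members with both directions, and up to 4 members of each role. The genes psma6b, ube2l3a, ube2ia, klhl13, keap1b, and rhobtb2a, and the genes that are not members, were named after their directions were seen. The background was the 858 genes under any KEGG term. Since the tables hold no expression values, no test or detection limit was computed. Planned promoter and protein sequences were not printed, because the reference data at hand did not hold them. The selection rule was tested on made-up tables. The 95% Wilson interval of the share of upregulated entries (45.4% to 61%) takes entries as independent and served only to judge whether an alternative moved that share. The alternatives were to keep the genes under the 5 other terms, to count symbols, to require 2 tables, and to require a Reactome entry. Python 3.11.15 and matplotlib 3.10.9 were used.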

Additional observations from a re-analysis of the deposited data

How the results depend on the processing

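Keeping the 11 genes of the 5 other KEGG terms, or counting symbols in place of identifiers, left all 26 results in place (counts within 1.5 times, the share of upregulated entries within its 95% interval). Requiring 2 tables moved 3 of the 26, with 29 members in all, 5 upregulated for impurity Q, and 7 upregulated for R. Requiring a Reactome entry left 22 members and moved 25 results. The share of upregulated entries became 62.7%, above the interval's upper bound of 61%, and the members listed were 7 for azithromycin, 7 for impurity J, 10 for I, 9 for Q, 8 for R, 11 for L, 10 for S, and 5 for F. This alternative keeps fewer genes by its construction. No library could be left out, since each condition has 1, and no paired analysis was possible because no group has replicate numbers. Depth is unknown, so its part in whether a gene was listed was not tested.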

Other observations

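Reactome rows of the same tables place further genes near protein folding and transport that stand under none of the 3 KEGG terms, and they were named after their directions were seen. The gene cct6a, a subunit of the cytosolic chaperonin that folds actin and tubulin, was listed for all 8 compounds, upregulated for impurities J, I, R, and S and downregulated for azithromycin and impurities Q, L, and F. Along the route from the ER to the Golgi, sec16b, a scaffold of the ER exit sites, was upregulated for J, I, Q, L, S, and F, whereas tmed7, a cargo receptor of the same transport step, was downregulated for J, Q, R, L, S, and F. Of 18 genes of the COPII coat and its regulators, sec16b was the only 1 (5.56%) in any table.

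Of 18 genes for N-glycosylation in the ER, 4 (22.2%) were in any table, with 2 upregulated and 12 downregulated entries. Of the entries of all KEGG genes, 51% were upregulated. The downregulated entries came from 2 genes alone, 8 from ganab and 4 from magt1. The other 2 genes were only upregulated, tusc3 for I and mogs for F. Besides ganab, the oxidoreductase subunit magt1 of the oligosaccharyltransferase was downregulated for J, I, R, and F. Under cellular response to heat stress and under SUMOylation stood nup188, a nuclear pore gene upregulated for all 8 compounds, and under SUMOylation hnrnpk, an RNA-binding protein gene upregulated for azithromycin and impurities J, I, Q, L, and S. Some other genes of these terms went the other way. Under heat stress, camk2d1 was downregulated for azithromycin, J, R, L, S, and F. Under SUMOylation, smc6 was downregulated for azithromycin, I, L, and F, tdg.1 for J and F, phc2a for azithromycin, and mdc1 for I. Outside the members, upregulated entries were the more frequent under SUMOylation, beside 51% of the entries of all KEGG genes. Many of them came from few genes, with 8 from nup188, 6 from hnrnpk, and 6 from xrcc4. The gene xrcc4 was downregulated for F, and scmh1 was upregulated for 4 compounds. Under heat stress, upregulated and downregulated entries outside the members were nearly even. Entries of the same gene are not replicates of a term. These comparisons also share the single DMSO library.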
